A study of Bos taurus with 18 samples.

Results

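Gene expression was compared between pools of bovine blastocysts from oocytes matured with miR-34c mimics and pools from untreated oocytes, to see how alike the transcriptomes of the 2 groups were. The comparison used 9 of the 18 sequenced pools of the series, 5 labelled microRNA-34c mimic supplementation and 4 labelled Untreated, and they were chosen by their treatment label and not by any measured value. In every pool the oocytes came from follicles of 2 to 4 mm of slaughterhouse ovaries, were matured in vitro (IVM) for 22 h, fertilized with frozen-thawed sperm of a proven bull and cultured, and 10 embryos were pooled at 8 d post insemination (dpi). The untreated group, called the control here, received the same volume of RNase-free water in the IVM medium per the methods of the study. The mimic was added to the IVM medium only, and the embryos were sequenced at 8 dpi. The study found uptake into oocytes and, citing earlier work, describes mimics as stable through embryo culture. Whether the sequenced embryos still held the mimic was not measured here. The labels do not say whether pools of one group came from separate IVM runs, and P values therefore measure the spread between these pools, which may be technical.

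MicroRNAs are short RNAs that guide Argonaute proteins to matching sites in messenger RNAs, whose translation and stability they lower. The miR-34 family is known as a target of p53 and as a repressor of genes of the cell cycle and of cell survival. A mimic is a double-stranded RNA with the sequence of the mature miRNA. A blastocyst holds an inner cell mass (ICM), which forms the embryo proper, and an outer trophectoderm (TE), which forms the placenta. In a pool of whole embryos, a smaller number of cells of one type and less RNA per cell cannot be told apart.

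Libraries covered the 5′ ends of mRNA, and the deposited values were estimated counts per Ensembl gene. The total per pool ranged from 2404575 to 3197174 counts in the control group and from 2063863 to 3900521 in the mimic group, and at this depth 0 counts in a library allow for up to 3, counting error only. Of the 27270 genes listed, 9041 had no count in any of the 9 pools, and 8116 had counts but did not pass the filter on low counts, with a median of 9 counts summed over the pools. The 10113 genes tested held from 99.2% to 99.5% of the counts of each pool. The genes carry Ensembl identifiers only. The gene table used here pairs none of them with a symbol, so that markers of ICM, TE or cumulus cells were not analysed here and the label blastocyst was not checked against them.

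The largest differences between pools did not follow the treatment. The first principal component of log2 CPM (counts scaled to a common library size) held 51.0% of the variance over the 9 pools. Control replicate 1 had a score of -56.4 and mimic replicate 2 a score of -58.2, while the other 7 pools lay between -4.26 and 27.5. One pool of each group thus stood at the same end. The mean score was -0.101 ± 38.1 (SD, n = 4) in the control group and 0.0805 ± 34.7 (SD, n = 5) in the mimic group, a difference of 0.181 (exact permutation test, two-sided, P = 0.984; adjusted P = 0.984 over 5 library measures). The total count, the number of genes detected, the share of counts in the 10 most abundant genes and the normalization factor gave exact permutation P values from 0.770 to 0.944, each with an adjusted P of 0.984, and the smallest value that 4 against 5 pools allow is 0.00794.

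**Figure D1:**
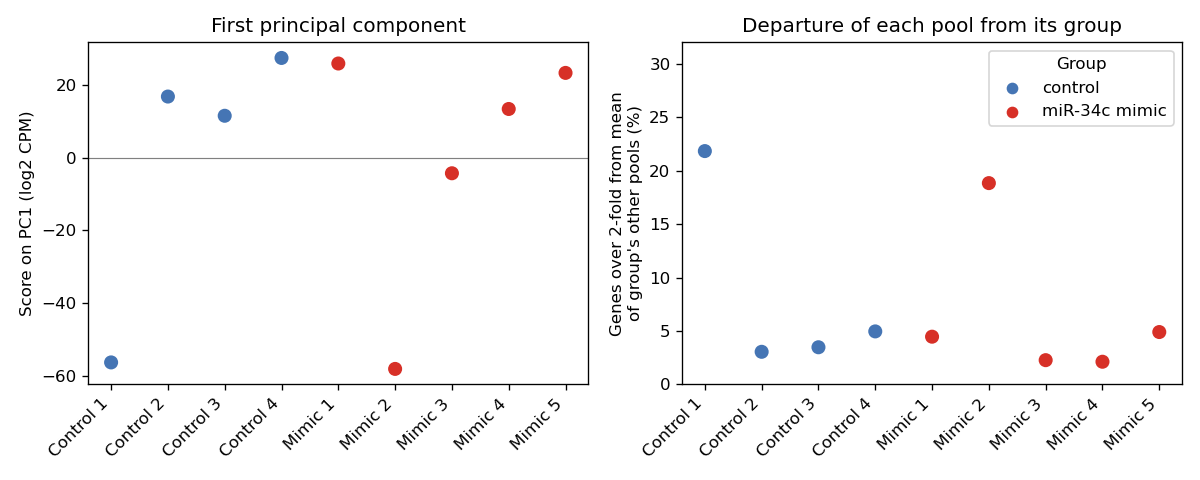
Left, score of each of the 9 pools on the first principal component of log2 CPM; right, share (%) of the 10113 genes tested that lay over 2-fold from the mean of the other pools of the same group, with control pools in blue and miR-34c mimic pools in red. Control 1 and mimic 2 share the low end of the component, at -56.4 and -58.2, and have 21.8% and 18.8% of genes over 2-fold away, against 2.13% to 4.96% in the other 7 pools.

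Distances between pools of different treatment overlapped those between pools of one treatment, and the smallest were between treatments. The median absolute difference in log2 CPM over the genes tested was taken for each pair of pools. Over the 20 pairs between the groups it had a median of 0.305 (range 0.234 to 0.619). Over the 6 pairs within the control group the median was 0.411 (0.253 to 0.631), and over the 10 pairs within the mimic group it was 0.351 (0.245 to 0.638). For 8 of the 9 pools the nearest pool belonged to the other treatment, and mimic replicate 5, nearest to mimic replicate 4, was the exception. Without control replicate 1 and mimic replicate 2, the medians were 0.266 between groups over 12 pairs, 0.273 within the control over 3 and 0.295 within the mimic group over 6. Pairs share pools and were not tested.

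No gene was DE between miR-34c mimic and control pools. With edgeR's quasi-likelihood test, 0 of 10113 genes (0%) had an adjusted P below 0.05 together with a 2-fold change, and the smallest adjusted P was 0.9996. The smallest adjusted P was 0.246 with DESeq2 and 0.591 in edgeR's test without control replicate 4. At an unadjusted P under 0.05 there were 81 genes (0.801%), where 5% is the nominal rate of the test. DESeq2, limma voom and limma voom with sample quality weights also gave 0 DE genes, with 79, 84 and 330 of the same 10113 genes at an unadjusted P under 0.05. The test fitted the 9 pools alone. With all 18 pools of the series in one fit there were 0 DE genes, and 160 of 11082 genes had an unadjusted P under 0.05. With the replicate number as a block 40 of 10113 genes were at that level, and without a filter on low counts 300 of 18229.

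The estimated differences were small in most genes. The absolute log2 fold change had a median of 0.126, a 90th percentile of 0.37 and a 99th percentile of 0.79. The fold change was above 0 in 5162 genes and below 0 in 4951, and its median over all genes was 0.00498 on the log2 scale. An estimate of at least 1.5-fold in either direction was found in 307 genes (3.04%). At least 2-fold was found in 41 (0.405%), of which 15 were higher and 26 lower in the mimic group. In 92.7% of genes the difference between the group means in log2 CPM was smaller than the SD between pools of one group. Means of 4 and 5 pools vary less than single pools, so most genes would fall below this SD without any change. The share without any change was not computed, and 92.7% is no measure of likeness. The values of the groups did not overlap in 24 genes that were higher in all mimic pools (0.237%) and in 26 that were lower in all of them (0.257%). No gene had at least 10 counts in every pool of one group and 0 in every pool of the other.

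A gene that is not DE may still differ, so the 95% interval of the log2 fold change was taken for each gene. A fold change counts as outside the interval when the whole interval lies between that change and its inverse. The half-width of the interval had a median of 0.61 on the log2 scale, which is a factor of 1.52 to each side, with a 10th percentile of 0.41 and a 90th percentile of 0.94. A 2-fold change in either direction lay outside the interval in 7860 of 10113 genes (77.7%). A 1.5-fold change lay outside it in 2363 (23.4%). A 3-fold change lay outside the interval in 97.0% of genes and a 4-fold change in 99.3%. These shares depended on the fit. Without a filter on low counts the 2-fold share was 44.5% of 18229 genes and the 1.5-fold share 11.9%, and with the replicate number as a block the shares were 61.4% and 2.02%.

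Both directions contributed to a similar extent. A 2-fold increase with the mimic lay outside the interval in 88.6% of genes and a 2-fold decrease in 87.0%. In 220 genes (2.18%) the interval held a 2-fold increase and also a 2-fold decrease, so that these data say little of them. For 1.5-fold the same was true of 2627 genes (26.0%). The fold change at the far end of the interval, in whichever direction it lay, had a median of 1.68-fold, a 10th percentile of 1.41-fold and a 90th percentile of 2.36-fold. It passed 4-fold in 71 genes, which had a median of 18.3 counts per pool against 77 over all genes tested.

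The intervals cover each gene on its own and are not adjusted for the number of genes. In an equivalence test, a pair of one-sided tests against both bounds with Benjamini-Hochberg adjustment over all genes, 8563 genes (84.7%) were within 2-fold and 0 within 1.5-fold at an adjusted P under 0.05. The share within 2-fold was 43.5% of 18229 genes without a filter on low counts and 70.7% with the replicate number as a block. The count within 1.5-fold depended on the tool, on the libraries in the fit and on whether control replicate 1 and mimic replicate 2 were both kept. It was 0 in each fit that left out 1 pool, 819 (7.39%) with all 18 libraries in edgeR's fit, 665 (6.58%) with DESeq2, 4346 (43.0%) with sample quality weights, and 3675 (37.0%) without both control replicate 1 and mimic replicate 2.

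**Figure D2:**
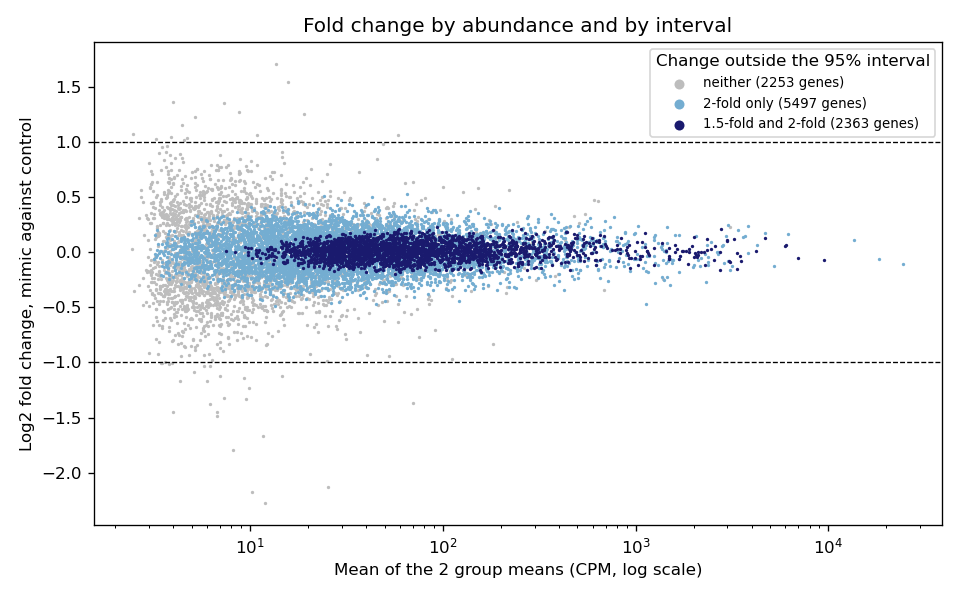
Log2 fold change of each of the 10113 genes tested (vertical axis) against the mean of both group means in CPM (horizontal axis, log scale), coloured by which change lay outside the 95% interval, with dashed lines at a 2-fold change. The 2253 genes in grey, for which the interval reached 2-fold, gather at low CPM, and the 2363 genes in dark blue, for which 1.5-fold was outside, lie close to 0 at higher CPM.

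How far a gene was bounded went with its abundance up to a point. The genes tested were put in 4 classes of about equal size by mean CPM. In the lowest class (2.45 to 10.8 CPM), a 2-fold change lay outside the interval in 1012 of 2529 genes and a 1.5-fold change in 0.474% of them, with a median half-width of 0.82 on the log2 scale. In the second class the 2-fold share was 81.8% with a half-width of 0.60, and in the third it was 93.2% with 0.51. In the highest class (67.0 CPM and above) it was 95.9%, the 1.5-fold share was 42.0%, and the half-width was again 0.51. Of the 2253 genes with 2-fold inside the interval, 1517 were in the lowest class and 104 in the highest. Among the 100 most abundant genes a 2-fold change lay outside the interval in 99 and a 1.5-fold change in 49, although their median was 6530 counts per pool.

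The standard error was never set below that of counting error, so the intervals could not be narrower than it. The values here give how much wider they were. From counting error alone, the median half-width would have been 0.22 on the log2 scale over all genes, and the half-width found was a median of 2.6 times the counting one. In the lowest abundance class the counting half-width was 0.45 beside the 0.82 found, and in the highest class 0.096 beside 0.51. With counting error alone, a 2-fold change would have been outside the interval in 96.1% of genes and a 1.5-fold change in 78.0%. With all 9 libraries thinned to the smallest total, 2063863 counts, the shares of genes were 79.2% for 2-fold and 21.8% for 1.5-fold, among the 9377 genes that then passed the filter.

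The spread in each group was raised most by 1 pool, and part of it remained without that pool. The biological coefficient of variation (BCV) measures how far pools of one group scatter beyond what counting gives. The 4 control pools had a BCV of 0.311, which fell to 0.167 when control replicate 1 was left out and lay between 0.328 and 0.348 when any other control pool was. The 5 mimic pools had a BCV of 0.292, with 0.184 when mimic replicate 2 was left out and 0.297 to 0.320 when any other mimic pool was. Control replicate 1 was the highest or the lowest of the 4 control pools in 75.5% of genes, against 36.5% to 49.6% for the other 3. Mimic replicate 2 was at an extreme of its 5 pools in 66.9%, against 23.4% to 44.1% for the other 4.

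Control replicate 1 and mimic replicate 2 shared part of their departures from their groups. Each pool was compared with the mean of the other pools of its own group. Control replicate 1 was over 2-fold lower than the other control pools in 1209 genes and over 2-fold higher in 999. Mimic replicate 2 was over 2-fold lower than the other mimic pools in 1173 genes and over 2-fold higher in 732. In 660 genes both were over 2-fold lower, in 295 both were over 2-fold higher, and in 10 they departed by over 2-fold in opposite directions. The 955 genes shared in direction were 43.3% of the 2208 in which control replicate 1 departed and 50.1% of the 1905 in which mimic replicate 2 did. Across the 10113 genes the departures of these 2 pools had a Pearson's r of 0.70. In the other 19 pairs of a control and a mimic pool it lay between -0.54 and 0.44. In each of these 19 pairs at least 1 of the means departed from holds control replicate 1 or mimic replicate 2, so that this range is not independent of these 2 pools. These values describe correlated genes in single libraries and carry no test. Both pools also had the highest share of counts in the 10 most abundant genes of their group (13.0% and 12.9%, against 7.90% to 11.8% in the other 7 pools). They had the most genes detected in their group (15322 and 15164, against 13770 to 14701). The part of these measures in the departures was not tested.

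**Figure D3:**
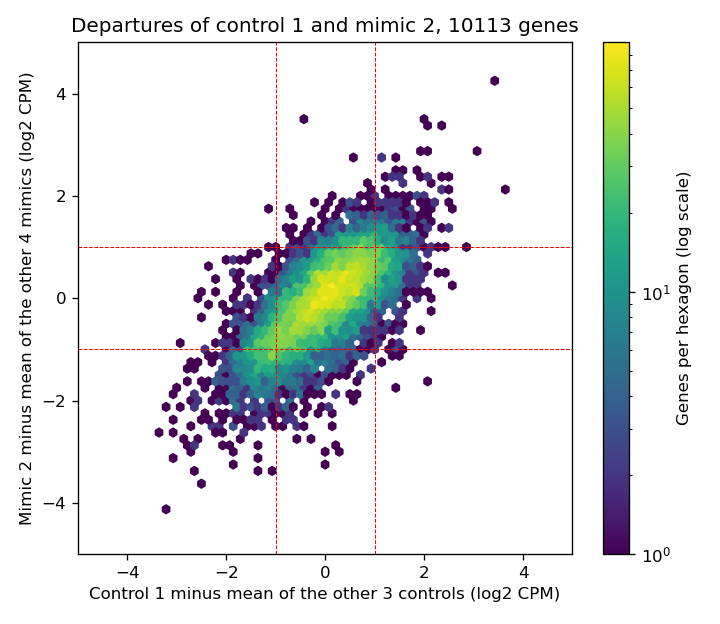
Departure of control 1 from the mean of the other 3 control pools (horizontal axis, log2 CPM) against the departure of mimic 2 from the mean of the other 4 mimic pools (vertical axis, log2 CPM) over 10113 genes, shaded by genes per hexagon on a log scale, with dashed lines at 2-fold. The cloud runs along the rising diagonal (Pearson's r of 0.70), with 660 genes at the lower left and 295 at the upper right beyond 2-fold in both.

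The estimates stayed small when these 2 pools were left out, and most intervals narrowed. Both were singled out after their values had been seen, and leaving them out is not a comparison of treatments as sampled. Without both pools, edgeR gave 0 DE genes and 247 of 9931 genes at an unadjusted P under 0.05. The median absolute log2 fold change was 0.14 in place of 0.126. The median half-width fell to 0.48 from 0.61. A 2-fold change then lay outside the interval in 82.7% of 9931 genes and a 1.5-fold change in 41.9%, in place of 77.7% and 23.4%. Of the 9887 genes in both fits, the interval was narrower in 7631 (77.2%), and the estimate moved by over 1.5-fold in 80 (0.809%). Its sign changed in 2288 (23.1%). A 2-fold change came to lie outside the interval in 776 genes and no longer did in 389, and for 1.5-fold these numbers were 2123 and 325. In the highest abundance class the half-width fell to 0.33 and the 1.5-fold share rose to 85.8%, and 94 of the 104 genes that had held a 2-fold change no longer did. In the lowest class the half-width was 0.80 and the 2-fold share 40.6%.

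Leaving out only 1 of the pair left the groups less balanced. Without control replicate 1, 224 of 10164 genes had an unadjusted P under 0.05, and without mimic replicate 2 it was 165 of 9884, each with 0 DE genes. The share with 2-fold outside the interval was 70.6% without control replicate 1 and 77.8% without mimic replicate 2. The 1.5-fold share was 19.3% and 24.9%. The mimic minus control difference on the first principal component was -18.6 without control replicate 1 and 14.7 without mimic replicate 2, against 0.181 with all 9 pools. With 1 such pool in each group the shifts thus pointed in opposite directions. Without any one of the other 7 pools the 2-fold share lay between 65.4% and 72.7% and the 1.5-fold share between 12.1% and 16.8%.

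**Figure D4:**
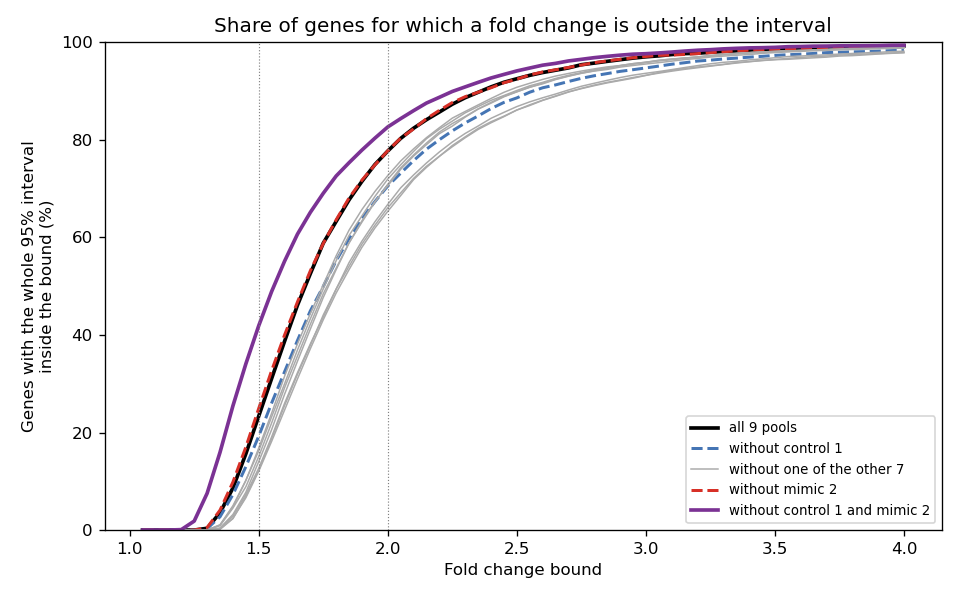
Share of genes tested (vertical axis, %) whose whole 95% interval lay inside a fold change bound (horizontal axis) with all 9 pools, without each pool and without control 1 and mimic 2 together; dotted lines mark 1.5-fold and 2-fold. At 1.5-fold the line without both pools stands at 41.9% and the line of all 9 at 23.4%, and the lines converge towards 4-fold, where all 9 pools give 99.3%.

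Of the genes whose groups did not overlap, ENSBTAG00000011334 had the smallest P among those higher in the mimic group. It stood at 31.2, 23.0, 28.3 and 28.3 CPM in control replicates 1 to 4 and at 38.2, 41.8, 57.4, 42.8 and 49.0 CPM in mimic replicates 1 to 5. Every mimic pool was above every control pool, and mimic replicate 3 was the highest. The means were 45.8 ± 7.57 CPM (SD, n = 5) and 27.7 ± 3.42 CPM (SD, n = 4). The log2 fold change was 0.72 with an interval from 0.31 to 1.13 (edgeR, unadjusted P = 0.00249 and adjusted P = 0.9996), so that this gene was not DE and a change of 1.24-fold to 2.19-fold was left inside the interval.

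ENSBTAG00000003367 had the smallest P among the genes that were lower in all mimic pools. Its control values were 17.6, 13.6, 17.5 and 16.7 CPM and its mimic values 8.59, 7.49, 9.57, 11.9 and 11.3 CPM, in replicate order. The lowest control pool was above the highest mimic pool by under 2 CPM. The means were 9.76 ± 1.82 CPM (SD, n = 5) and 16.3 ± 1.84 CPM (SD, n = 4). The log2 fold change was -0.76 with an interval from -1.26 to -0.26 (edgeR, unadjusted P = 0.0057 and adjusted P = 0.9996), and the gene was not DE either. From 23 to 59 counts per pool lay behind these values. Without control replicate 1 and mimic replicate 2 the log2 fold changes of these genes were 0.81 for ENSBTAG00000011334 and -0.64 for ENSBTAG00000003367.

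ENSBTAG00000010118 had the narrowest interval of all genes tested, and its estimate was above 0. It stood at 107, 108, 118 and 102 CPM in control replicates 1 to 4 and at 119, 121, 114, 116 and 116 CPM in mimic replicates 1 to 5. The groups overlapped through control replicate 3. The log2 fold change was 0.11 with an interval from -0.22 to 0.44, which holds changes from 0.857-fold to 1.36-fold and leaves 1.5-fold outside.

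ENSBTAG00000012044 had the narrowest interval among genes with an estimate below 0. The control pools held 1201, 1333, 1373 and 1300.1 CPM and the mimic pools 1281, 1143, 1208, 1185 and 1194 CPM. Here control replicate 1 and mimic replicates 1 and 3 lay within the range of the other group. The log2 fold change was -0.11 with an interval from -0.45 to 0.22, or 0.731-fold to 1.17-fold. The adjusted P of both genes was 0.9996 in edgeR's quasi-likelihood test.

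**Figure D5:**
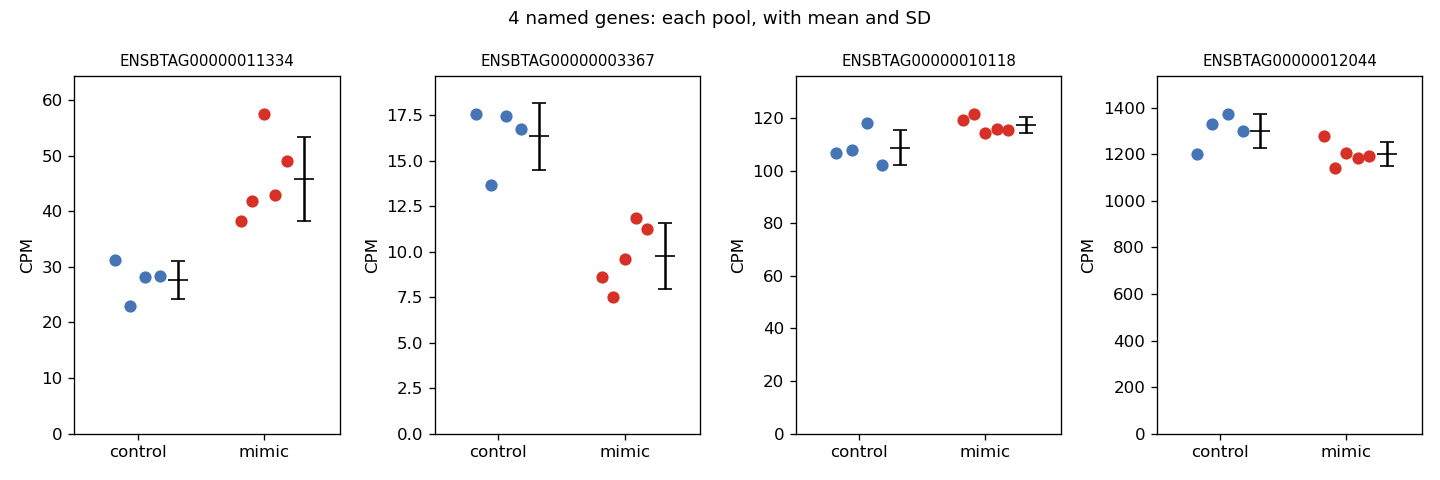
CPM (vertical axes, from 0) of 4 genes in each of the 4 control pools (blue) and 5 miR-34c mimic pools (red), with the mean and SD of each group as bars. The groups do not overlap in the 2 genes on the left, which were selected for this, and overlap in the 2 on the right, whose intervals were the narrowest in each direction.

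Values of 2 comparisons that share one of these groups can be set beside those above. The median absolute log2 fold change was 0.126 for mimic against control (5 and 4 pools), 0.23 for mimic against the negative control (NC) mimic (5 and 3 pools) and 0.25 for NC mimic against control (3 and 4 pools), each in a fit of its 2 groups. The median half-widths were 0.61, 0.57 and 0.62 on the log2 scale. A 2-fold change lay outside the interval in 77.7%, 66.6% and 60.8% of the genes tested in each. In edgeR's quasi-likelihood test mimic against NC mimic gave 2 DE genes (0.0193% of 10384) and 873 at an unadjusted P under 0.05 (8.41%). NC mimic against control gave 0 DE genes of 10331 (0%) and 1018 at an unadjusted P under 0.05 (9.85%). These counts moved with single pools. The number of genes tested in the fits without 1 pool is not given here, so that no share stands beside their counts. Without mimic replicate 2 the first comparison gave 369 DE genes and 2933 at an unadjusted P under 0.05. It gave 1 DE gene without mimic replicate 1, 2 without mimic replicate 4 or 5, and 0 without mimic replicate 3 or any one NC mimic pool. Its unadjusted count was 579 without mimic replicate 3, and 443 and 574 without NC mimic replicates 1 and 2. Without control replicate 1 the second comparison gave 338 DE genes and 3156 at an unadjusted P under 0.05. It gave 0 DE genes without any other pool, and its unadjusted count was 496 and 657 without NC mimic replicates 1 and 2. The comparisons share pools and differ in the number of pools, and the differences between them were not tested.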

How the data were processed

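The authors deposited one table of RSEM estimated counts per Ensembl gene, whole numbers without normalization. The submitters' processing notes name FastQC 0.11.9, cutadapt 3.7, STAR 2.7.10a, UMI-tools 1.1.4, RSEM 1.3.3 and the ARS-UCD 1.2 assembly. RSEM divides reads that match several genes, so genes with near-identical copies are uncertain. Whether strand was used in counting is not given in the sources used here.

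Counts were analysed in R 4.3.3 with edgeR 4.0.16 (quasi-likelihood F test): TMM normalization, filterByExpr by group, and the treatment as the only term. The fit held the 2 groups compared, since the BCV within each of the 5 treatments of the series ranged from 0.107 to 0.416. Genes were DE when the P adjusted by Benjamini-Hochberg was below 0.05 and the change at least 2-fold, as in the study for miRNAs. The standard error of the unshrunken log2 fold change came from the negative binomial information, scaled by the moderated quasi-dispersion and never below the Poisson value, and the 95% interval used 12.7 total degrees of freedom. Log2 CPM used a prior count of 2. The steps were tested on simulated negative binomial counts with independent pools and no outlying pool. That test does not cover pools that depart as control replicate 1 and mimic replicate 2 do. Alternatives were another scaling, other filters, all 18 libraries, a replicate block, DESeq2 1.42.0, limma 3.58.1 and leaving out pools.

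All 16 pairs of pools within a group differed by more than sampling noise (chi-square of 4.42 to 56.4 per degree of freedom). Of the 37063 rows of the RefSeq gene table, 0 held an Ensembl identifier, so the planned gene lists were not run. Named genes were, in each direction, the one with the smallest P among genes whose groups did not overlap and the one with the narrowest interval. The members, lists and settings were chosen with earlier results of these data known.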

Additional observations from a re-analysis of the deposited data

Results flagged for a closer look

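One control pool was set apart from its group in its TMM normalization factor. Control replicate 1 had a factor of 1.101, while the other 3 control pools had 0.958 to 0.981. The distance to the next pool took up 0.838 of the range, which passes Dixon's 95% critical value for a group of 4. It was 1 of 20 group checks, over 6 library measures and 4 genes, and chance sets apart about 1 in 20 such groups. Mimic replicate 2 had the highest factor of its own group, 1.07, at a distance of 0.503 of the range, which does not pass the critical value for 5.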

How the results depend on the processing

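The number of DE genes was 0 under every alternative run, among them the adjusted P alone. Without a filter on low counts, 2-fold lay outside the interval in 44.5% of 18229 genes, 1.5-fold in 11.9%, and 43.5% were within 2-fold by the equivalence test, with 300 genes at an unadjusted P under 0.05; more genes of few counts enter there. With all 18 libraries in the fit, 160 genes had an unadjusted P under 0.05 and 7.39% were within 1.5-fold by the equivalence test, and DESeq2 gave 6.58% there. With sample quality weights the 1.5-fold interval share was 45.8%, the equivalence share 43.0%, and 330 genes had an unadjusted P under 0.05. Without control replicate 1 and mimic replicate 2 together these were 41.9%, 37.0% and 247. With a 90% interval the 1.5-fold share was 40.7%. Except where the construction shows it, the cause was not tested.

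With the replicate number as a block, the 1.5-fold share was 2.02% and 40 genes had an unadjusted P under 0.05. Mimic replicate 5 has no partner in that fit. Deviations of same-numbered pools from their group means correlated from -0.53 to 0.34 over 4 pairs, 1 of them above 0.1, so that equal numbers were not taken as pairs. Those means hold control replicate 1 or mimic replicate 2, and the values do not show that pairing is absent.

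Across the 9 fits without 1 pool each, the 2-fold share ranged from 65.4% to 77.8%, the 1.5-fold share from 12.1% to 24.9%, the equivalence share within 2-fold from 72.5% to 84.5%, and the count at an unadjusted P under 0.05 from 59 to 224. It was 155 without control replicate 4. The 1.5-fold share was 12.3%, 12.7% and 12.1% without control replicates 2, 3 and 4, and 15.1% and 14.0% without mimic replicates 3 and 4. The mimic minus control difference changed sign in each library measure: from -133314 to 325850 in total counts, -254 to 172 in genes detected, -0.78 to 0.8294 percentage points in the share of the 10 most abundant genes, -0.0233 to 0.0266 in the normalization factor and -18.6 to 14.7 on the first principal component. The exact permutation P of these was at least 0.393. The 2-fold share ranged from 49.4% to 69.7% for mimic against NC mimic, and from 41.4% to 67.8% for NC mimic against control. The log2 fold changes of the 4 named genes kept their sign in all 20 alternatives. For ENSBTAG00000011334 and ENSBTAG00000003367, selected because their groups did not overlap, leaving out pools could hardly have reversed the sign. For them the fits without pools are no support. Thinning, and leaving pools out of these other comparisons, were chosen after seeing the data. The gene lists were not run.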
